A study of Mus musculus with 6 samples.

Results

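The 10 genes described here mark successive stages of skeletal muscle formation: *Pax7*, the myogenic factors *Myf5*, *Myod1*, *Myog* and *Myf6*, the fusion and adhesion genes *Mymk* and *Cdh15*, and the acetylcholine receptor subunits *Chrna1*, *Chrnd* and *Chrng*. They were chosen by name, with earlier results of these data known, out of 18099 genes with counts. The tissue was injured Achilles tendon, and the question was whether RNA of these genes differed between the genotypes and how it followed the RNA of muscle fibres in the same library, read from *Ckm* and *Acta1*. RNA was sequenced from 3 *LysM-Cre; Ampkα1 fl/fl* samples and 3 samples of littermate controls, *Ampkα1 fl/fl* without Cre. Each sample was the repair tissue of a neonatal mouse, taken 7 days after its Achilles tendon had been cut across. *LysM-Cre* is active in myeloid cells such as macrophages and neutrophils, whereas the RNA came from the whole repair tissue, so that cells without Cre contributed to every library. The groups are called LysM-Cre and control here.

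Skeletal muscle forms from precursor cells that switch on a family of basic helix-loop-helix factors. *Pax7* marks satellite cells, the stem cells of muscle. *Myf5* and *Myod1* commit cells to the myoblast fate, *Myog* drives their differentiation, and *Myf6* is best known from maturing fibres. Myoblasts then fuse into fibres, for which the membrane protein encoded by *Mymk* (myomaker) is required, and fetal fibres carry acetylcholine receptors with the γ subunit until it is replaced by the ε subunit after birth. A tendon has no fibres of its own but joins the muscle belly at the myotendinous junction.

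The myogenic factors bind DNA at E-boxes, with the letters CANNTG. The 250 bases before the annotated start are shown for *Myog* and for both receptor subunits with a promoter in the RefSeq-based table, since *Myog* is the most abundant of the 4 factors in these libraries and receptor genes are textbook targets of the family. They are read 5′ to 3′ along the gene's strand in GRCm38.p6, with E-boxes in capitals.
Myog (chr1:134289754-134290003, plus strand): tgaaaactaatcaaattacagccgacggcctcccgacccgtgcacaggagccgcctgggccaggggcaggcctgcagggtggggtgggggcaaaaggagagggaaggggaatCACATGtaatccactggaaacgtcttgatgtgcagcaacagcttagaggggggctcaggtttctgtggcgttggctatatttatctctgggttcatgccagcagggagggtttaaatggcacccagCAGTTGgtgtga
Chrna1 (chr2:73580339-73580588, minus strand): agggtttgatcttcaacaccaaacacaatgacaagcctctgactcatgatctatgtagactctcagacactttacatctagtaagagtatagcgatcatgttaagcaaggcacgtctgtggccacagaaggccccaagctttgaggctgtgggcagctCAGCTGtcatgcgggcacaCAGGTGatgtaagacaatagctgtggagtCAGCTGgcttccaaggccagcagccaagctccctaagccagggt
Chrng (chr1:87205561-87205810, plus strand): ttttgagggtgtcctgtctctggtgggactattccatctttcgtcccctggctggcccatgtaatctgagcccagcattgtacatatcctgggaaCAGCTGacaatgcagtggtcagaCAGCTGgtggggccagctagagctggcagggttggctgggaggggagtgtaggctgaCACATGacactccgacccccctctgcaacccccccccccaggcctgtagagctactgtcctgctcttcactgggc
The *Myog* window held 2 E-boxes, CACATG at 138 and CAGTTG at 12 bases before the start. The *Chrna1* window held 3, which were CAGCTG at 92, CAGGTG at 73 and CAGCTG at 44 bases, and the *Chrng* window also held 3, which were CAGCTG at 155 and 132 and CACATG at 75 bases. Of 32851 mouse promoter windows of this length searched on both strands, 66.2% held at least 1 CANNTG, 31.8% at least 2 and 12.2% at least 3. CAGCTG and CAGGTG are E-boxes themselves and are counted among them. At least 1 CAGCTG was present in 13.0% of the windows and at least 2 in 1.26%, and at least 1 CAGGTG in 17.2%. Among the other members in the table, *Cdh15* had 3 E-boxes and *Pax7* and *Myf5* had 0 in this window. The *Pax7* and *Myf5* windows lay inside the gene spans given below, so that they do not precede the outermost start. A match describes the letters and not the binding of a factor.

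The libraries held between 18076805 and 19479887 reads assigned to genes, so that 3 reads corresponded to between 0.157 and 0.165 CPM, the count scaled to a common library size. *Prkaa1*, which encodes AMPKα1, ranged from 32.7 to 40.6 CPM and did not pass the edgeR test (log2 fold change -0.08, SE 0.09, adjusted p = 0.744). *Lyz2*, the locus that carries Cre in the *LysM-Cre* strain, had 390.4, 425.0 and 404.2 CPM in the control libraries and 0.469, 0.811 and 0.432 CPM in the LysM-Cre libraries, which set the groups apart without overlap. Tendon markers were high in every library, with a summed level of 94480 to 111500 CPM over 10 genes, which included *Scx* at 101.2 to 140.6 CPM. Over all 14261 genes tested, the median log2 fold change was -0.00, and 0.898% of genes passed an adjusted p of 0.05.

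*Pax7* (chr4:139737059-139833530) was barely detected. It had 4, 1 and 33 reads in control libraries 1, 2 and 3 and 23, 4 and 67 reads in LysM-Cre libraries 1, 2 and 3. The groups overlapped, since control library 3 had more reads than 2 of the LysM-Cre libraries. The mean was 0.692 ± 0.971 CPM in the control group and 1.68 ± 1.75 CPM in the LysM-Cre group (SD, n = 3 each), a log2 fold change of 1.27 ± 1.20 (± SE for every fold change, edgeR adjusted p = 0.688). In each group the third library was the highest and the second the lowest.

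The myogenic factors were low to moderate. *Myf5* and *Myf6* lie next to each other on chromosome 10, at chr10:107482908-107486927 and chr10:107492848-107494723, with 5920 bases between them. *Myf5* had 0, 3 and 7 reads in the control libraries and 12, 6 and 21 reads in the LysM-Cre libraries, too few to pass the filter on low counts. In control library 1, 0 reads allow a level of up to 0.159 CPM. The groups overlapped only through control library 3, which lay above LysM-Cre library 2 by 1 read. *Myod1* (chr7:46376474-46379092) had 6, 25 and 97 reads against 97, 41 and 192 reads. Control library 3 and LysM-Cre library 1 thus had the same count, and control library 1 stood at the bottom. *Myog* (chr1:134290004-134292548) had 8, 76 and 196 reads against 128, 114 and 455 reads, and *Myf6* had 4, 13 and 81 reads against 85, 39 and 251 reads. For both genes the groups overlapped, with control library 3 inside the range of the LysM-Cre group.

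In CPM, *Myod1* averaged 2.33 ± 2.64 in the control group and 5.88 ± 4.14 in the LysM-Cre group (SD, n = 3 each). Its log2 fold change was 1.33 ± 0.91 (edgeR adjusted p = 0.565). *Myog* averaged 5.11 ± 5.23 against 12.5 ± 10.5 CPM, a log2 fold change of 1.29 ± 0.96 (edgeR adjusted p = 0.604). *Myf6* differed most between the groups among the factors tested, with 1.79 ± 2.31 against 6.70 ± 6.06 CPM and a log2 fold change of 1.91 ± 1.05 (edgeR adjusted p = 0.469). For *Myf5*, a fit without the filter on low counts gave 1.90 ± 0.87 (edgeR adjusted p = 0.44). In the control group the standard deviation exceeded the mean for each of the 4 factors.

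*Mymk* (chr2:27061636-27072161), whose product acts in the membrane of fusing myoblasts, had 8, 21 and 85 reads in the control libraries and 45, 45 and 120 reads in the LysM-Cre libraries. Control library 3 exceeded LysM-Cre libraries 1 and 2. The means were 2.08 ± 2.27 and 3.76 ± 2.37 CPM (SD, n = 3 each), which gave the smallest log2 fold change of the members tested, 0.85 ± 0.82 (edgeR adjusted p = 0.693). *Cdh15* (chr8:122848374-122867397), which encodes M-cadherin of satellite cells and myoblasts, had 9, 30 and 81 reads against 92, 42 and 218 reads. Only LysM-Cre library 2 lay within the control range. The means were 2.19 ± 2.04 and 6.28 ± 4.93 CPM, a log2 fold change of 1.52 ± 0.83 (edgeR adjusted p = 0.464).

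The receptor subunits were all highest in LysM-Cre library 3 and lowest in control library 1. *Chrna1* (chr2:73563281-73580338), the α subunit of both the fetal and the adult receptor, had 8, 41 and 155 reads in the control libraries and 216, 84 and 388 reads in the LysM-Cre libraries. LysM-Cre library 2 again lay within the control range and the other two lay above it. *Chrna1* averaged 3.72 ± 4.24 against 12.3 ± 8.26 CPM (SD, n = 3 each), a log2 fold change of 1.72 ± 0.93 (edgeR adjusted p = 0.461). *Chrnd* (chr1:87190597-87200070), the δ subunit of both receptors, had 3, 8 and 51 reads against 42, 31 and 134 reads. Here control library 3 lay above 2 LysM-Cre libraries. The means were 1.13 ± 1.45 and 3.70 ± 3.08 CPM, and the log2 fold change was 1.71 ± 0.98 (edgeR adjusted p = 0.489). *Chrng* (chr1:87205811-87211835), the fetal γ subunit, lies 5740 bases from *Chrnd* and had 0, 4 and 18 reads against 9, 9 and 48 reads, too few for the filter. Control library 3 had more *Chrng* reads than LysM-Cre libraries 1 and 2.

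*Chrne*, the ε subunit of the adult receptor, had 0, 0 and 7 reads in the control libraries and 11, 2 and 23 reads in the LysM-Cre libraries. Of the summed TPM of *Chrng* and *Chrne* (a level scaled to transcript length), *Chrng* made up 67.4% in control library 3 and 39.2%, 79.5% and 62.3% in the LysM-Cre libraries. In control library 2 *Chrng* alone was detected, and in control library 1 neither had a read. The share of the fetal subunit thus lay on both sides of the value of control library 3, and it rested on few reads.

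**Figure D1:**
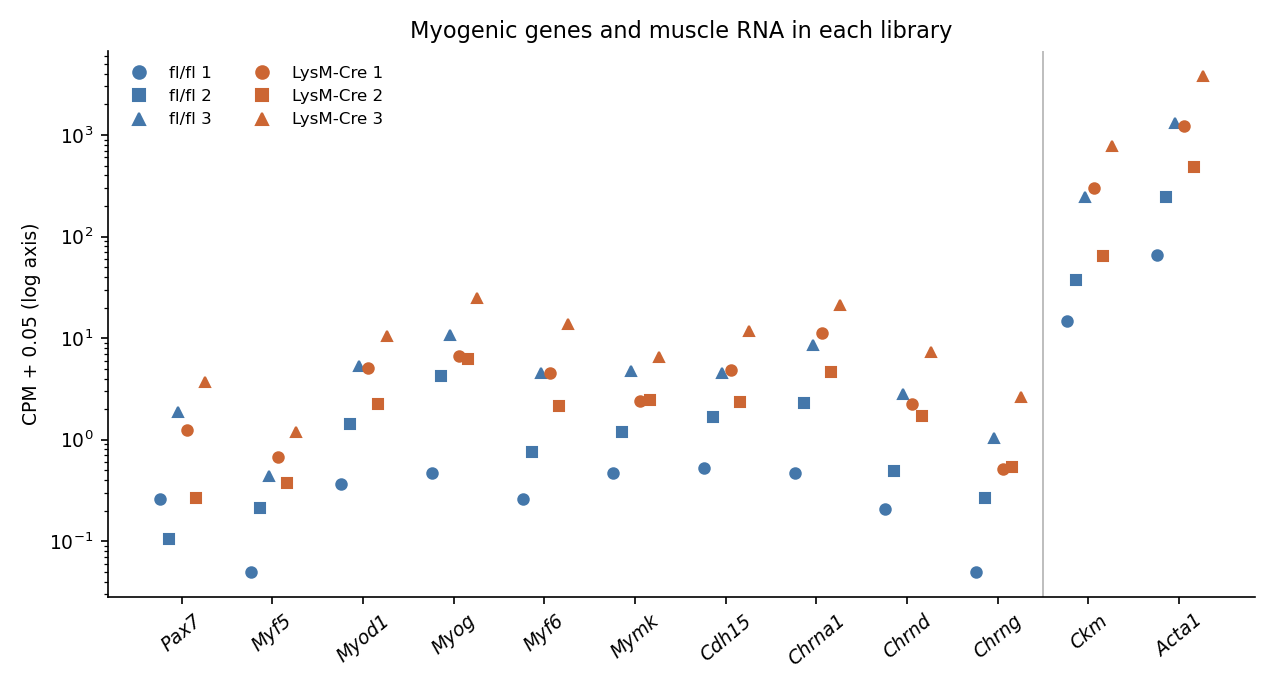
Expression of the 10 myogenic genes, with *Ckm* and *Acta1* at the right, as CPM plus 0.05 on a log axis. Each point is 1 library, coloured by group and shaped by replicate number. Control library 1 (fl/fl 1) is at or next to the bottom and LysM-Cre library 3 at the top for each gene, and the groups overlap for each gene.

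The LysM-Cre library was higher than the control library of the same number in all 3 pairs for 10 of 10 members, a pattern that 19.1% of all genes tested showed. The members rose and fell together over the libraries, with Pearson's r from 0.763 to 0.993 between pairs of the 8 tested. Counts of members are therefore not counts of independent results. The groups overlapped for 10 of 10 members, where 8.94% of the genes tested had all LysM-Cre libraries above all control libraries. By edgeR, 0 of the 8 members tested passed an adjusted p of 0.05 and 0 had an unadjusted p under 0.05, and DESeq2 gave 0 and 2 (*Cdh15* and *Chrnd*). Among all genes tested, edgeR called 0.898% at an adjusted p of 0.05, with 0.33% higher, and 5.97% were higher at an unadjusted p. DESeq2 called 4.77% at an adjusted p, and 5.86% were higher at an unadjusted p. The exact permutation test of 3 against 3 libraries, two-sided on log2(CPM + 0.5), gave p from 0.2 to 0.5 for the 10 members, and the smallest p it can give is 0.1. In this bulk tissue, more cells of the muscle lineage and more RNA per cell cannot be told apart.

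The replicate number was shared between the groups, although the labels do not say that same-numbered samples were paired. With it as a block in edgeR, the log2 fold changes of the 8 members lay between 1.17 (*Mymk*) and 2.21 (*Myf6*), with a median of 1.60 against 1.43 without the block. The standard errors were smaller, for example 0.51 for *Myf6* and 0.45 for *Chrnd*. All 8 then had an unadjusted p under 0.05, where 7.64% of the genes tested did so in this direction, and 0 of 8 passed after adjustment, beside 0.33% of all genes (smallest edgeR adjusted p = 0.124, *Chrnd*). Here too the 8 members are not independent of each other. Single libraries moved the values of the edgeR fit without the block. Without control library 3, the median log2 fold change was 3.00 and 8 of 9 members tested had an unadjusted p under 0.05, beside 7.89% of all genes in this direction. Without LysM-Cre library 3, the median was 0.67 and 0 of 8 did.

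Muscle fibre RNA differed between the libraries in nearly the same order. *Acta1*, skeletal muscle α-actin, had 65.5, 242.5 and 1314 CPM in the control libraries and 1226, 484.2 and 3844 CPM in the LysM-Cre libraries. *Ckm*, muscle creatine kinase, had 14.7, 37.1 and 244.6 CPM against 297.0, 64.1 and 785.6 CPM. The groups overlapped for both, with log2 fold changes of 1.78 ± 1.14 for *Acta1* (edgeR adjusted p = 0.535) and 1.95 ± 1.19 for *Ckm* (edgeR adjusted p = 0.511). Muscle RNA, taken as the mean log2(CPM + 0.5) of the pair, was ordered from lowest to highest as control 1, control 2, LysM-Cre 2, control 3, LysM-Cre 1 and LysM-Cre 3. Between the lowest and highest library *Acta1* differed 58.7-fold and *Ckm* 53.6-fold. The members with more than 3 reads in every library spanned 15.3-fold (*Mymk*), 24.7-fold (*Cdh15*), 32.7-fold (*Myod1*), 49.5-fold (*Chrna1*), 58.1-fold (*Myog*) and 64.1-fold (*Myf6*).

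Across the 6 libraries, Pearson's r between log2(CPM + 0.5) of a member and muscle RNA lay between 0.903 for *Pax7* and 0.998 for *Myod1*. The exact permutation p, two-sided over the 720 pairings, lay between 0.00139 and 0.0264, and 0.00139 is the smallest p possible with 6 libraries. Spearman's rho was 1.0 for *Myf5*, *Cdh15* and *Chrna1* (exact p = 0.00278), 0.943 for *Myod1*, *Myog*, *Myf6* and *Chrnd* (exact p = 0.0167), 0.886 for *Pax7* (exact p = 0.0333) and 0.829 for *Mymk* and *Chrng* (exact p = 0.0583). Without the 2 libraries farthest from the median of muscle RNA, control 1 and LysM-Cre 3, r was 0.762 for *Chrng*, 0.787 for *Mymk*, 0.83 for *Myog* and at least 0.887 for the others. Of all genes tested, 6.65% had a positive r with an exact p under 0.05 and 3.31% had r above 0.9. After adjustment over the same relation in all 14261 genes, 0 of the 8 members tested passed (adjusted permutation p from 0.233 to 0.388 for r and from 0.179 to 0.367 for rho), as did 0.0% of all genes. The relation was not computed within each group of 3 libraries, and its points carry the difference between the groups.

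**Figure D2:**
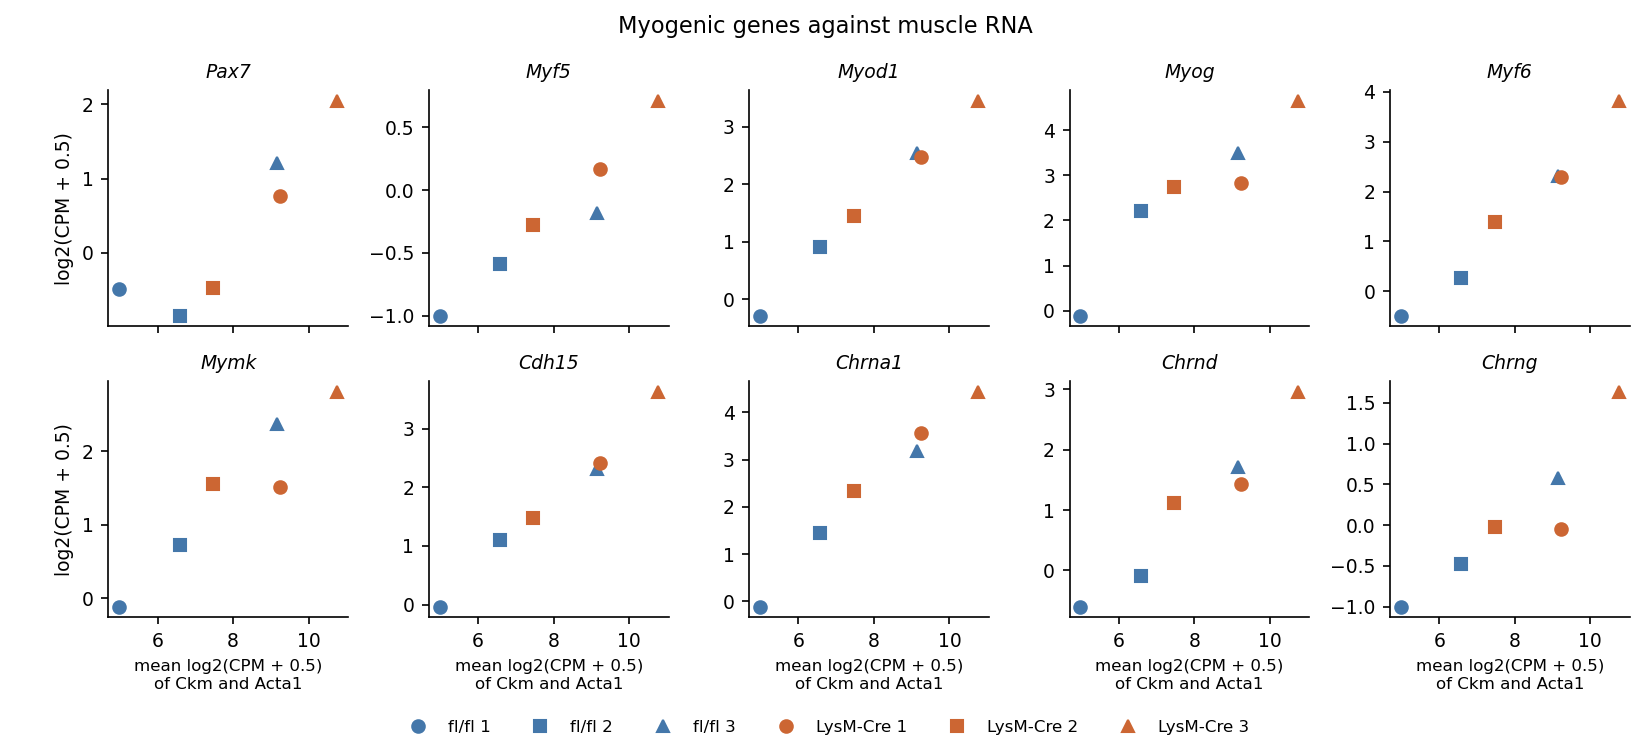
Each panel plots log2(CPM + 0.5) of a myogenic gene against muscle RNA, the mean log2(CPM + 0.5) of *Ckm* and *Acta1*, with 1 point per library. Control library 3 (fl/fl 3) and LysM-Cre library 1 have nearly the same muscle RNA, 9.15 and 9.24, and nearly the same *Myod1*, *Myf6* and *Cdh15*, whereas *Pax7*, *Mymk*, *Chrnd*, *Chrng* and *Myog* are lower and *Myf5* and *Chrna1* higher in that LysM-Cre library.

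With muscle RNA as a covariate in edgeR, the median log2 fold change of the 8 members was 0.01, and 0 of 8 had an unadjusted p under 0.05, beside 5.0% of all genes in the upward direction. After adjustment 0 of 8 passed, beside 0.512% of all genes. *Myf6*, *Chrna1*, *Chrnd* and *Cdh15* kept a positive sign, at 0.30 ± 0.26, 0.35 ± 0.27, 0.35 ± 0.40 and 0.08 ± 0.25. *Myod1*, *Myog*, *Mymk* and *Pax7* were at -0.05 ± 0.27, -0.05 ± 0.49, -0.18 ± 0.40 and -0.72 ± 0.62. The adjusted p in edgeR lay between 0.715 and 0.987 for these 8. These values are the difference between the groups that the fit, with 3 residual degrees of freedom, gives for equal muscle RNA. Muscle RNA itself was 4.98, 6.58 and 9.15 in the control libraries and 7.47, 9.24 and 10.8 in the LysM-Cre libraries. The groups thus shared only part of its range.

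**Figure D3:**
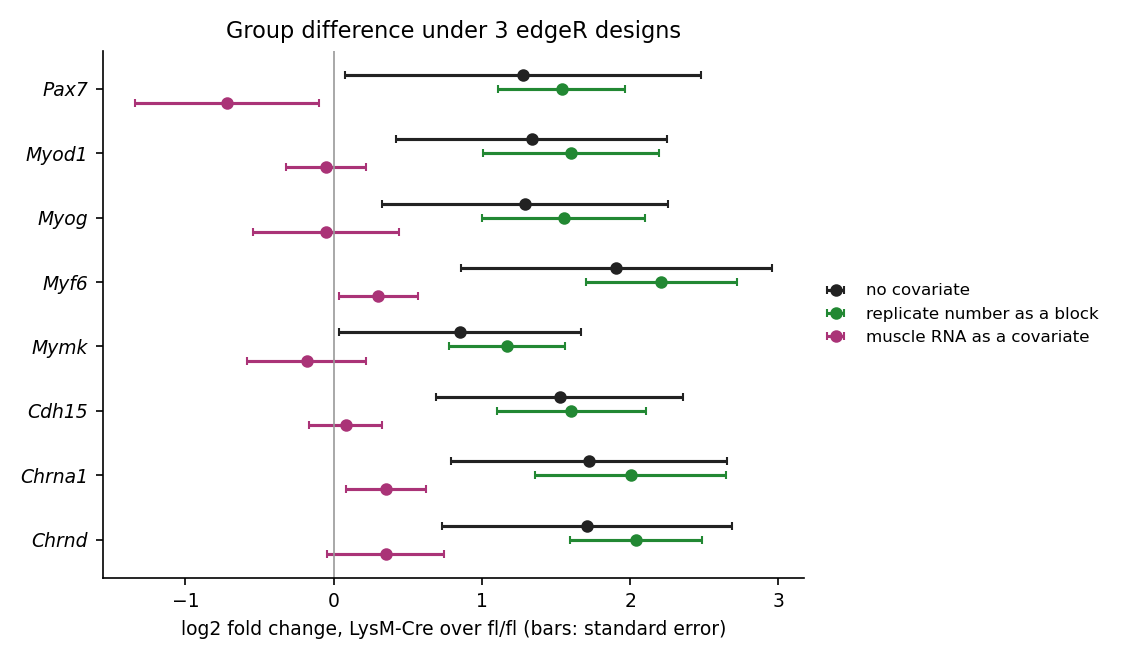
Log2 fold change of LysM-Cre over control libraries for the 8 members tested, with bars of 1 standard error, from edgeR without a covariate (black), with the replicate number as a block (green) and with muscle RNA as a covariate (purple). The black and green points lie between 0.85 and 2.21, and the purple points between -0.72 and 0.35.

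The members were also expressed per 1000 CPM of muscle RNA, here the geometric mean of the CPM of *Ckm* and *Acta1*. On this scale *Myog* had 13.7, 43.8 and 19.0 CPM in the control libraries and 11.1, 35.0 and 14.2 CPM in the LysM-Cre libraries. The second library of each group was the highest. *Myf6* had 6.83, 7.48 and 7.83 CPM against 7.34, 12.0 and 7.81 CPM. *Mymk* had 13.7, 12.1 and 8.22 CPM against 3.89, 13.8 and 3.73 CPM, and *Cdh15* had 15.4, 17.3 and 7.83 CPM against 7.95, 12.9 and 6.78 CPM. *Myod1* had 10.3, 14.4 and 9.38 CPM against 8.38, 12.6 and 5.97 CPM, and *Chrna1* had 13.7, 23.6 and 15.0 CPM against 18.7, 25.8 and 12.1 CPM. For each of these genes, the LysM-Cre library with the least muscle RNA, number 2, had the highest ratio of its group. The control library with the least muscle RNA, number 1, had the highest ratio of its group for *Mymk* alone. Muscle RNA is also the denominator of these ratios.

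On the log2 scale and without a pseudocount, the ratio to muscle RNA (the mean of log2 *Ckm* and log2 *Acta1*) differed between the groups, LysM-Cre minus control, by -0.92 for *Mymk*, -0.53 for *Cdh15*, -0.38 for *Myod1*, -0.35 for *Myog*, 0.09 for *Chrna1* and 0.26 for *Myf6*. The groups overlapped for each of the 6 (exact permutation p from 0.3 to 0.9, two-sided). With a pseudocount of 0.5 CPM, which raises the ratio of a gene with few reads, all 10 members could be included, and the median difference was -0.86 against -0.36 for the 6 without it. On that scale the groups did not overlap for *Pax7* alone, with a difference of -1.43 (exact permutation p = 0.1, adjusted p = 0.293 over all genes), beside 0.715% of genes that were lower without overlap. The *Pax7* groups overlapped with a pseudocount of 0.1 and with *Ckm* alone as muscle RNA, and control library 2 held 1 *Pax7* read. Leaving out control library 3 or LysM-Cre library 2 raised the number of members lower without overlap to 7 of 10 in each case, beside 98.1% and 69.2% of all genes. Within the same-numbered pairs, 8 of 10 members had a lower ratio in the LysM-Cre library in all 3 pairs, beside 97.7% of all genes, and *Myf6* and *Chrnd* did not. Per 1000 CPM of muscle RNA without a pseudocount, 3 of the 6 members (*Myod1*, *Myog* and *Cdh15*) were lower in all 3 pairs. With 3 pairs, an exact sign-flip permutation test cannot give a p below 0.25.

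The slope of a member's log2 CPM on muscle RNA, without a pseudocount, was 0.64 for *Mymk*, 0.75 for *Cdh15*, 0.84 for *Myod1*, 0.87 for *Myog*, 0.93 for *Chrna1* and 1.01 for *Myf6*. A slope of 1 means that a gene changed by the same factor as muscle RNA. For 25 genes of adult fibres the slopes ranged from 0.58 to 1.35 with a median of 0.92, so that all 6 members lay within their range. Leaving out each library in turn gave 0.53 to 0.69 for *Mymk*, 0.66 to 0.78 for *Cdh15* and 0.94 to 1.03 for *Myf6*. The slopes of *Mymk*, *Cdh15*, *Myod1* (0.70 to 0.91) and *Myog* (0.55 to 0.95) thus stayed below 1 in each of these fits, and that of *Chrna1* reached 1.02 in the highest.

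**Figure D4:**
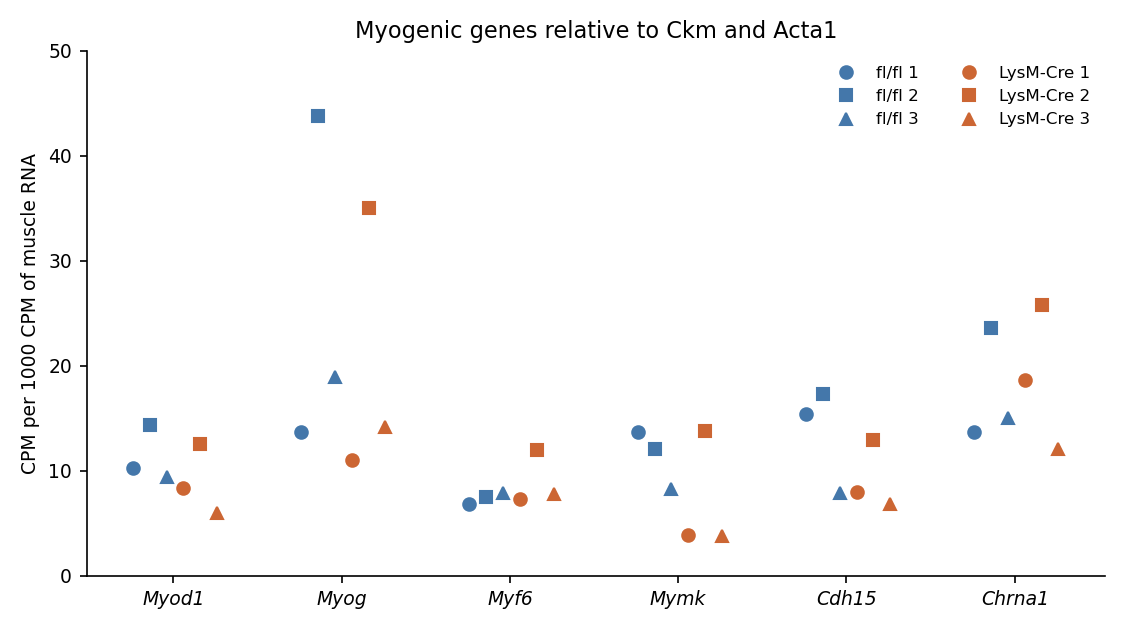
CPM of the 6 members with more than 3 reads in every library, with 1 point per library and no pseudocount. Values are per 1000 CPM of muscle RNA, the geometric mean of *Ckm* and *Acta1*. The groups overlap for each gene, and *Myog* is highest in the second library of both groups, at 43.8 and 35.0.

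By TPM, which allows levels of different genes to be compared, *Myog* had the highest mean of the members with 15.0 ± 14.2 TPM (SD over 6 libraries), above *Myf6* (9.02 ± 10.2) in 6 of 6 libraries. In control library 1, however, *Mymk* (0.83 TPM) was above *Myog* (0.73 TPM). *Myf6*, *Mymk* (5.60 ± 4.24) and *Myod1* (5.31 ± 4.66) followed without a fixed order, *Myf6* being above *Mymk* in 3 libraries and *Mymk* above *Myod1* in 4. *Myod1* was above *Chrna1* (3.94 ± 3.64) in 6 of 6 libraries. *Chrna1* was above *Cdh15* (3.32 ± 3.11) in 4, and *Cdh15* was above *Chrnd* (1.81 ± 1.89) in 6. *Chrng* (0.985 ± 1.14), *Myf5* (0.473 ± 0.426) and *Pax7* (0.443 ± 0.506) were the lowest. *Chrnd* was above *Chrng* in 6 libraries, whereas *Chrng*, *Myf5* and *Pax7* changed places between libraries.

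Ratios between members, and of the receptor subunits and myosins to related genes, were also compared within libraries. *Myog* TPM over *Myod1* TPM was 1.74, 4.03 and 2.68 in the control libraries and 1.75, 3.69 and 3.14 in the LysM-Cre libraries (exact permutation p = 0.9). *Myf6* over *Myod1* was 1.07, 0.856 and 1.38 against 1.45, 1.57 and 2.15, without overlap (exact permutation p = 0.1, the smallest possible, and 0.9 adjusted over 9 ratios). Its value in control library 1 rested on 4 *Myf6* and 6 *Myod1* reads. The other 8 ratios, which included *Myh3* over *Myh8* and *Chrnd* over *Chrnb1*, had overlapping groups. Of 14177 genes, 0.113% had a TPM relative to *Myod1* that was higher in every LysM-Cre library than in every control library. *Myod1* itself ran from 0.42 to 13.18 TPM with overlapping groups, so that a gene at a constant level would also overlap on this scale. *Mymk* over *Myog* was 1.14, 0.327 and 0.482 against 0.392, 0.439 and 0.293, with control library 1 resting on 8 reads of each gene.

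Other genes of muscle formation were read from lists of names. Of 14 satellite cell and progenitor genes tested, 9 had a higher and 5 a lower estimate in the LysM-Cre group (median on the log2 scale 0.10, beside 49.4% of all genes higher), and 1 passed in edgeR. This was *Ncam1*, a cell adhesion molecule of nerve and of regenerating muscle, with 66.5, 70.6 and 74.1 CPM in the control libraries and 99.5, 90.6 and 103.9 CPM in the LysM-Cre libraries. Its log2 fold change was 0.48 ± 0.07 (edgeR adjusted p = 0.0413). *Notch3*, a receptor with a role in satellite cell quiescence, was at -0.50 ± 0.09 (edgeR adjusted p = 0.0721), and *Fgfr4* at 0.60 (edgeR adjusted p = 0.773). *Notch3* had 97.5 to 161.9 CPM per library, where *Pax7* had 0.0546 to 3.62 CPM. Which cells held the *Notch3* RNA was not tested. *Pax3* had 5 to 8 reads per library and was not tested.

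Of 13 fusion genes tested beside *Mymk*, 10 were higher and 3 lower, with a median log2 fold change of 0.09, and 2 passed. *Cdh2* (N-cadherin, which myoblasts share with many other cells) was higher, with a log2 fold change of 0.49 ± 0.08 (edgeR adjusted p = 0.0456). *Cdon*, a cell surface receptor that associates with cadherins in myoblasts, was lower, with -0.49 ± 0.06 (edgeR adjusted p = 0.0276). With the replicate block none of *Ncam1*, *Cdh2* and *Cdon* passed (edgeR adjusted p = 0.0634, 0.0645 and 0.0611), with muscle RNA as a covariate only *Cdh2* did, and when single libraries were left out 2 of them passed without LysM-Cre library 2 and 0 without any of the others. *Cav3* and *Trim72*, both of the fibre membrane, had 1.69 and 1.68 (edgeR adjusted p = 0.445 and 0.483). *Mymx*, whose small product acts with myomaker, had 0, 9 and 14 reads in the control libraries and 10, 6 and 35 reads in the LysM-Cre libraries, again with LysM-Cre library 3 the highest.

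Among 17 partners and inhibitors of the myogenic factors, 11 were higher and 6 lower (median log2 fold change 0.16), and 0 passed in edgeR, with 2 higher and 1 lower at an unadjusted p under 0.05. *Rbm24*, an RNA-binding protein of muscle, had a log2 fold change of 1.46 (edgeR adjusted p = 0.507). Of 10 genes of the neuromuscular junction, 8 were higher and 2 lower (median 0.78), and 0 passed, with 2 higher at an unadjusted p under 0.05. *Colq*, the collagen tail of acetylcholinesterase, had a log2 fold change of 1.16 without overlap of the groups (standard error 0.26, edgeR adjusted p = 0.109). *Dok7* and *Ache* were at 1.15 and 1.02, with overlapping groups.

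The contractile genes had estimates in the same direction as the members. All 12 genes of developing contractile apparatus and all 25 genes of adult fibres had a higher estimate in the LysM-Cre group, with medians on the log2 scale of 1.90 and 1.79 against 1.43 for the 8 members. None passed in edgeR (0 of 12 and 0 of 25, with 1 and 0 genes at an unadjusted p under 0.05), and with the replicate block 9 and 24 had an unadjusted p under 0.05, beside 7.64% of all genes in that direction, and 0 passed. With muscle RNA as a covariate their medians were 0.28 and 0.03. The r with muscle RNA was above 0.9 for 25 of 25 adult fibre genes, 11 of 12 developmental contractile genes, 8 of 8 members tested, 5 of 10 junction genes, 4 of 17 partners and inhibitors, 2 of 13 fusion genes and 1 of 14 satellite cell and progenitor genes, beside 3.31% of all genes. The last 2 lists summed to 1215 to 1342 CPM and 576.5 to 625.6 CPM per library, where the members summed to 2.65 to 102.4 CPM. The part of cells other than muscle in these lists was not tested. Between the 28 pairs of the 8 members tested, r over the 6 libraries ranged from 0.763 to 0.993 with a median of 0.956.

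Among the genes whose pattern over the 6 libraries was most like the mean of the 8 members were *Neb*, *Ttn*, *Lmod3*, *Mylpf*, *Popdc3*, *Mafa*, *Acta1*, *Rbm24* and *Actn2*. Their r was between 0.997 and 0.998. *Neb*, *Ttn*, *Mylpf* and *Actn2* encode parts of the sarcomere. *Neb* had 123, 369 and 1824 reads in the control libraries and 1896, 739 and 5670 reads in the LysM-Cre libraries, again lowest in control library 1 and highest in LysM-Cre library 3.

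Markers of other cell types also differed between these libraries. The 10 macrophage and leukocyte markers summed to 990.1 to 1038 CPM in the control group and 625.8 to 832.7 CPM in the LysM-Cre group, with 8 of 10 at a lower estimate, 0 past the edgeR threshold and 4 lower at an unadjusted p under 0.05, beside 8.55% of all genes in that direction. All 12 cell division genes were lower without overlap, beside 11.4% of all genes, with a median log2 fold change of -0.62, and 0 passed in edgeR, all 12 at an unadjusted p under 0.05. Both lists had a median r of -0.74 with muscle RNA. The 8 Schwann cell markers summed to between 173.1 and 6800 CPM, highest in control library 3 and lowest in control library 2, with a median log2 fold change of -0.45 and 0 past the threshold. All 7 endothelial markers were lower (median -0.16), 3 at an unadjusted p under 0.05 in edgeR, and 0 passed. The 8 cartilage and bone markers had a median of -0.71 but split into 4 higher and 4 lower. Of these, 3 were higher and 4 lower at an unadjusted p under 0.05 in edgeR, beside 5.97% and 8.55% of all genes, and 1 passed (*Acan*, higher). For 10 tendon markers the median was -0.01, and 1 passed (*Dcn*, lower). The part of these cell types in the values of the members was not tested.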

How the data were processed

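RNA was measured in 3 control and 3 LysM-Cre libraries of tendon repair tissue, sequenced on a BGISEQ platform. The authors deposited, for each of 65053 transcripts, an estimated count of reads per library, which is not normalized, and a TPM value, which is scaled to length and library. The genome build was GRCm38.p6 per the submitters' processing notes, and the aligner and counting tool are not given in the sources used here. The deposited FPKM columns (6) and 8 columns of group means were not used, nor were 6 columns of a signal that the authors call normalized counts.

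Estimated counts were summed per NCBI Gene identifier and rounded (18099 genes, of which 18049 matched a symbol), and TPM values were summed likewise. Genes were tested with edgeR 4.0.16 (TMM factors, filterByExpr, quasi-likelihood F test, R 4.3.3) with Benjamini-Hochberg adjustment over the 14261 genes kept and a threshold of 0.05. DESeq2 1.42.0 and limma 3.58.1 on log2(TPM + 0.1) were alternatives. The edgeR fits to all libraries and DESeq2 were also run on simulated data, whereas limma and the fits without single libraries were not. CPM were scaled by the TMM factors. The p-values of correlations and of ratios to muscle RNA were adjusted over all genes tested, where the plan had adjusted them over the 10 members. The group and number of each library came from its label, and per the study's methods each group held 3 mice. The labels do not name pairs, and the block and the pairs used here rest on the replicate number alone. Deviations from the group means correlated over genes between same-numbered libraries at r = 0.13, 0.133 and 0.32. Between differently numbered libraries r ranged from -0.556 (control 1 with LysM-Cre 3) to 0.537 (control 1 with LysM-Cre 2). These values do not settle whether same-numbered libraries were pairs.

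Named are the 10 members, *Ckm*, *Acta1*, *Prkaa1*, *Lyz2*, genes among the 10 most similar and up to 3 genes per list with the largest absolute log2 fold change. Some genes that this rule selects are not reported here. *Cdh2*, *Cdon*, *Acan*, *Chrne*, *Chrnb1*, *Myh3*, *Myh8*, *Mymx* and *Pax3* were added after their values were seen. The members and lists were chosen with earlier results of these data known. Motifs were counted in 250 bases before the RefSeq start, which the promoter table gave for 6 of the 10 members.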

Additional observations from a re-analysis of the deposited data

How the results depend on the processing

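No member passed an adjusted p of 0.05 (0 of those tested) under edgeR, DESeq2, other size factors, no filter on low counts, TPM with limma, the replicate block, the muscle RNA covariate or any fit that left out 1 library, and the smallest adjusted p was 0.124, with the replicate block. A filter of at least 10 reads in every library left 0 members to test. With muscle RNA as a covariate, the log2 fold changes of 4 members changed sign, to -0.72 for *Pax7*, -0.0504 for *Myod1*, -0.0521 for *Myog* and -0.18 for *Mymk*. Of 91 genes tested in the lists for muscle formation and contraction, 3 passed in edgeR and 7 with DESeq2, beside 0.898% and 4.77% of all genes. With the replicate block 0 passed and with the muscle RNA covariate 1, beside 0.33% and 0.512% of all genes. With TPM in limma 0 of 97 passed. When single libraries were left out, 0 to 2 of 92 to 95 passed, and the cause was not tested. Without single libraries, the log2 fold change ranged from 0.05 to 3.58 for *Pax7*, from 0.33 to 2.45 for *Myog* and from 0.88 to 3.85 for *Myf6*, and no member changed sign. The median difference in the log2 ratio to muscle RNA, LysM-Cre minus control, lay between -1.32 (without control replicate 3) and -0.36 (no pseudocount, an alternative chosen after the data were seen). Over all genes tested, 128 passed in edgeR, 680 with DESeq2, 53 with TPM in limma, 47 with the replicate block, 73 with the muscle RNA covariate and 8 to 276 without single libraries. The lowest library held between 1 and 9 reads for each of the 8 members tested, and 0 for *Myf5* and *Chrng*.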
